A study of Mus musculus with 18 samples.

Results

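Kinesins, cytoplasmic dynein and dynactin are the machinery that moves cargo along microtubules. The genes described here are those whose symbol begins with Kif and a digit, or with Kifc. Added to these are the kinesin light chains (Klc1 to Klc4), cytoplasmic dynein chains (Dync, Dynl) and dynactin subunits (Dctn1 to Dctn6). Of 22021 genes listed by the authors, 68 matched, and 57 of these reached at least 1 CPM (CPM is the share of a library's reads that fall on a gene, on a scale common to all libraries) in at least 4 of 16 libraries and were tested among 14214 genes. The other 11 stayed under that level: Kif2b, Kif6, Kif12, Kif17, Kif18b, Kif27, Klc3, Dynlrb2, Dynlt1a, Dynlt1b and Dynlt1f. Kif20a passed with 4 libraries at 1 CPM or more, and Kif6, Kif17, Kif27, Klc3 and Dynlrb2 missed with 3.

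Kinesins and dynein are ATP-driven motors that step along microtubules in opposite directions. In an axon, whose microtubules point away from the cell body, most cargo-carrying kinesins move vesicles, mitochondria and cytoskeletal parts outward, and dynein, activated by dynactin and adaptor proteins, moves endosomes and signalling complexes back to the cell body. A further set of kinesins builds the spindle of dividing cells or works in the primary cilium. Sensory neurons of the dorsal root ganglion have some of the longest axons of the body, and mutations of several of these motors cause axonal neuropathies.

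The mRNAs were measured in dorsal root ganglia by translating ribosome affinity purification (TRAP), in male and female mice of 8 to 12 weeks from a cross of Rosa26fsTRAP and Nav1.8cre animals on a C57BL/6J background. In all groups Cre, driven by the promoter of Scn10a (the sodium channel gene of most nociceptors), had switched on an EGFP-L10a ribosomal fusion protein in Nav1.8-expressing neurons, so that anti-GFP beads recover ribosome-bound mRNA of those neurons and of no defined subtype among them. Biosamples 1 to 4 were normal and 5 to 8 came from paclitaxel-treated mice, each with an input and a TRAP library, which makes 4 groups, where the input is the cleared extract from which the pulldown was made. Paclitaxel, a cancer drug that binds and stabilises microtubules and can cause a painful neuropathy, was injected intraperitoneally in a cremophor vehicle at 4 mg/kg, 4 times in 8 days, 16 mg/kg in all. Biosample 7 came as 2 subsamples, which were averaged, so 18 libraries gave 16. The labels state neither whether the normal animals received vehicle nor how many animals make up a biosample.

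Libraries were made from the 3′ ends of transcripts, so a transcript gives about 1 read whatever its length and CPM is not divided by length. The inputs held 4266012 to 14478022 reads over the listed genes and the pulldowns 5972329 to 32713519, and 13152 to 14043 genes reached 1 CPM in an input against 8081 to 13228 in a pulldown. A count of 3 reads corresponds to 0.0917 to 0.703 CPM, a floor for counting error only. The list of 12 nociceptor markers summed to 4971 to 7924 CPM in normal input, 9179 to 11904 in normal TRAP, 4746 to 6213 in paclitaxel input and 9408 to 11713 in paclitaxel TRAP. The 11 markers of myelinating Schwann cells summed to 6076 to 10852, 2028 to 3249, 6950.3 to 9113 and 2151 to 2872 CPM in the same order, and the 11 of satellite glia to 2649 to 4532, 1477 to 2654, 3044 to 4485 and 1825 to 3031. In TRAP 4 of the 12 nociceptor markers rose and 2 fell in normal and 7 rose and 0 fell in paclitaxel, and of 10 markers of large-fibre neurons, which mostly lack Nav1.8, 7 fell in normal and 8 in paclitaxel. Likewise 10 of the 11 Schwann cell markers and 8 of the 11 satellite glia markers fell in each treatment. Across all genes tested 5.09% rose and 24.7% fell in normal, and 4.92% rose and 23% fell in paclitaxel TRAP. The marker calls were not followed under other scalings of the libraries. No nociceptor or glial marker was at 0 in all libraries of a group, and the part of the remaining glial RNA in the results was not tested. In such bulk extracts fewer cells of a type and less RNA per cell cannot be told apart.

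The first question was which motor mRNAs were more or less abundant on tagged ribosomes than in the matching extract. Among normal biosamples 9 of the 57 members rose in TRAP and 11 fell (limma with biosample as a block, Benjamini-Hochberg adjusted p under 0.05 over all 14214 genes). Of all genes tested 5.09% rose and 24.7% fell. In the paclitaxel biosamples 10 members rose and 9 fell, where 4.92% of all genes rose and 23% fell. The same shares of all genes apply to the counts of each role group below. The members that rose in both treatments are parts of the axonal transport motors: Kif5a, Klc1, Kif3c, Dync1i2, Dynll2, Dctn1 and Dctn2. Kif1c, Klc2 and Kif7 fell in both.

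The median log2 change of the 57 members was -0.26 in normal and -0.22 in paclitaxel biosamples, against -0.66 and -0.56 over all genes tested, and 41 and 34 members lay above the median of all genes. The groups of libraries did not overlap for 14 members in normal and 23 in paclitaxel biosamples, and for 23% and 31.3% of all genes tested. Summed over the members, the level was 15261 to 15736 CPM in normal input and 19655 to 21311 in normal TRAP. After paclitaxel it was 12545 to 13672 CPM in input and 14864 to 17289 in TRAP. Input and TRAP did not overlap in either treatment. Such sums weigh abundant members most. Mean Klc1 went from 2903 to 5501 CPM in normal and from 1876 to 3028 in paclitaxel. Mean Dynll2 went from 1491 to 3044 and from 1080 to 2088 CPM. The log2 change was above 0 for 19 of the 57 members in normal and for 21 in paclitaxel biosamples.

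How many members fell depended on how the libraries were scaled. Scaling by median ratios moved the median of all genes to -0.33 in normal and -0.29 in paclitaxel biosamples. The genes called then split into 1406 higher and 1712 lower in normal and 1265 higher and 1952 lower in paclitaxel, in place of 724 and 3509, and 699 and 3264, on the CPM scale. Quantile normalization gave 1307 higher and 1388 lower in normal and 1354 and 1492 in paclitaxel, and edgeR on reads recovered from the CPM steps gave 1252 and 612, and 1148 and 767. Of the members, 14 rose and 4 fell in normal and 14 rose and 3 fell in paclitaxel with median ratios, and the 4 that fell in normal were Dctn6, Kif1bp, Kif23 and Kif7. With edgeR 13 rose in each treatment, 1 fell in normal (Dctn6) and 0 in paclitaxel. A fall on the CPM scale is thus relative to the total of a library. Without the 4 biosamples whose pulldowns held the fewest genes (a setting chosen after seeing the data), 9 members of 530 genes rose and 5 of 1863 fell in normal, and 6 of 411 rose and 1 of 1434 fell in paclitaxel. Further, 6 members (Kif2c, Kif4, Kif7, Kif20b, Kif23 and Kifc5b) reached 1 CPM in 4 or more inputs but in fewer than 4 pulldowns. They entered the test through the inputs alone, so that their falls partly follow from the level filter and support nothing; of the other 51 members 9 rose and 9 fell in normal and 10 rose and 6 fell in paclitaxel. The plot of all member changes sets each role group against the medians of all genes.

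**Figure D1:**
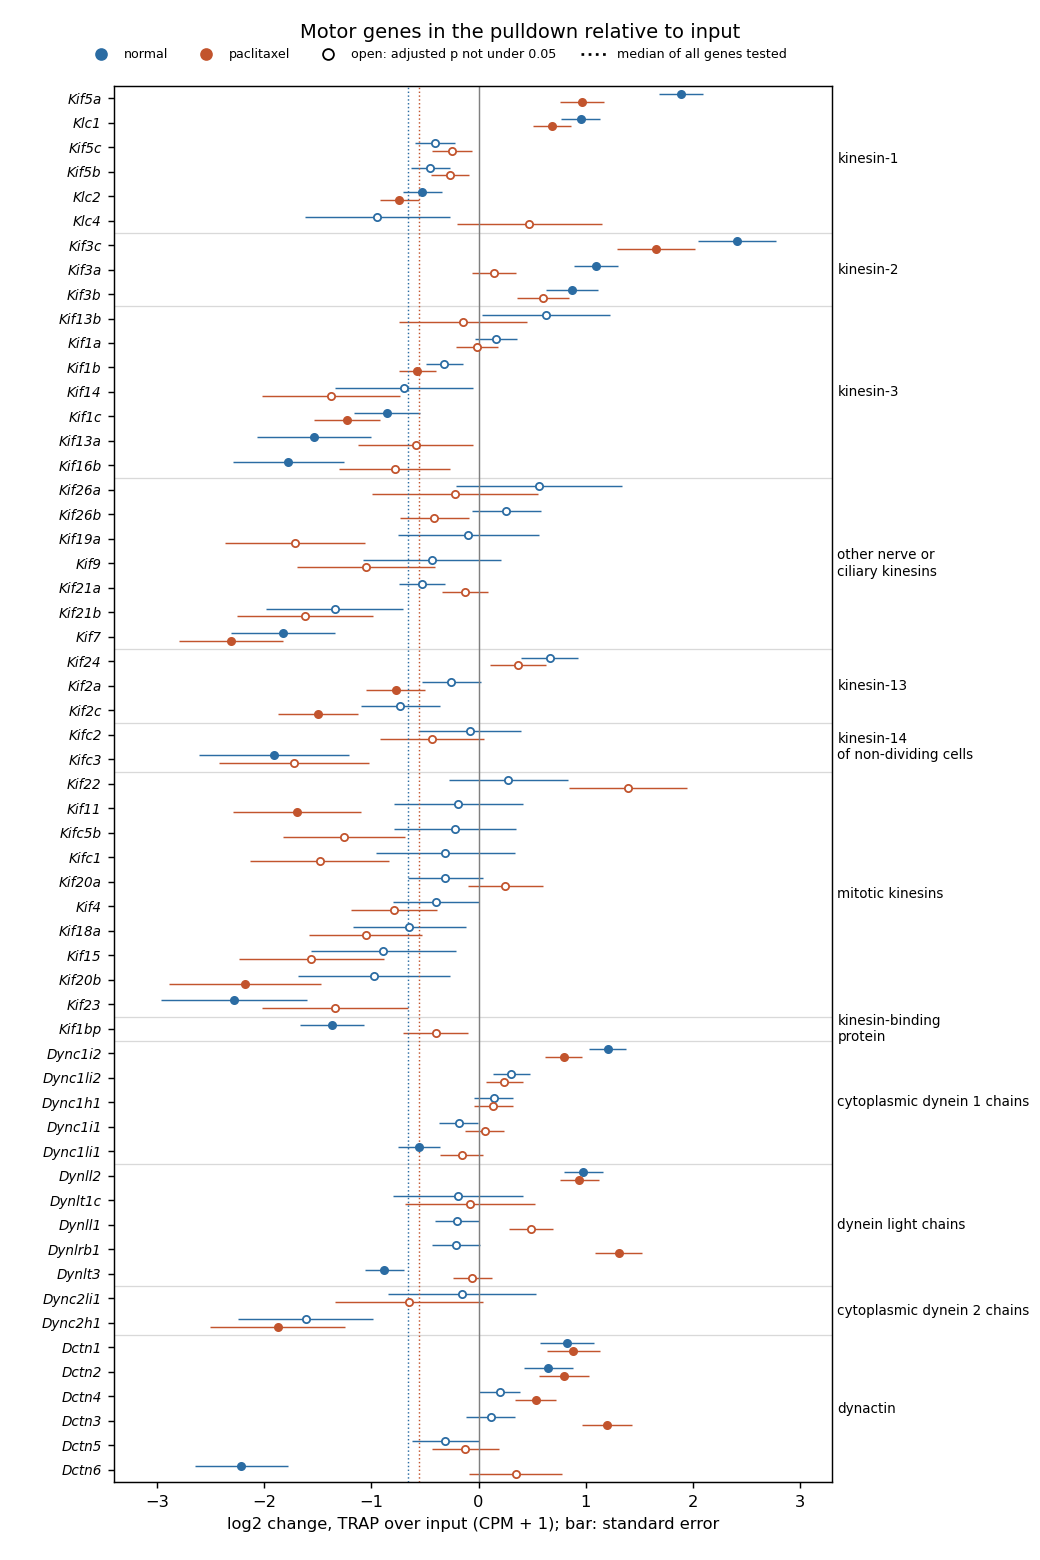
Log2 change of TRAP over input for the 57 members, in 12 role groups, for normal (blue) and paclitaxel (orange) biosamples, with the standard error as a bar. Filled points passed an adjusted p under 0.05, and dotted lines mark the median of all genes tested, -0.66 in normal and -0.56 in paclitaxel. Kif3c (2.41) and Kif5a (1.89) have the highest changes in normal, and Dynlrb1, Dctn3 and Dctn6 lie further right in paclitaxel than in normal.

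Kinesin-1, the main motor of fast outward transport, is built of heavy chains (Kif5a, Kif5b or Kif5c), which hold the motor, and light chains (Klc1 to Klc4), which bind cargo. Of its 6 tested chains Kif5a and Klc1 rose and Klc2 fell in both treatments, and Kif5b, Kif5c and Klc4 did not pass in either. Kif5a, the neuron-specific heavy chain (ENSMUSG00000074657.4, GRCm38 chromosome 10, 127225695 to 127263363, minus strand), stood at 278, 433, 416 and 361 CPM in normal inputs 1 to 4 and at 1479, 1128, 1151 and 1775 CPM in the matching pulldowns. It stood at 358, 341, 429 and 413 CPM in paclitaxel inputs 5 to 8 and at 842, 914, 756 and 542 CPM in their pulldowns. Every pulldown was above every input within both treatments, and the paclitaxel pulldowns all lay below the normal ones. The log2 change was 1.89 (SE 0.20, adjusted p = 1.15e-06) in normal and 0.96 (SE 0.20, adjusted p = 0.00187) in paclitaxel biosamples, and the difference between these changes did not pass (-0.92, adjusted p = 0.185).

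Kif5b, the heavy chain found in all cell types, did not pass in either treatment. Its levels were 2625, 1643, 1575 and 1869 CPM in normal input and 1337, 1213, 1258 and 1789 CPM in normal TRAP. In paclitaxel biosamples they were 1370.2, 1418, 1342 and 1138 CPM in input and 1088, 1089, 1028 and 1171 CPM in TRAP. Input and TRAP overlapped in both treatments, with log2 changes of -0.45 (adjusted p = 0.0584) and -0.26 (adjusted p = 0.271). For Kif5c, a second neuron-enriched heavy chain, the levels were 339, 424, 399 and 275 CPM in normal input, 243, 243, 276 and 309 in normal TRAP, 507, 487, 311 and 284 in paclitaxel input and 399, 432, 272 and 233 in paclitaxel TRAP. These overlapped as well, with log2 changes of -0.41 (adjusted p = 0.0953) and -0.25 (adjusted p = 0.326).

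Klc1, the light chain abundant in neurons, whose exons overlap a gene on the other strand, had the highest CPM of 3′ reads of the 57 members in every pulldown. It was at 2866, 2224, 2527 and 3996 CPM in normal input and 5606, 5593, 4808 and 5998 CPM in normal TRAP. After paclitaxel it was at 1682, 1928, 1838 and 2055 CPM in input and 2982, 3589, 2749 and 2791 CPM in TRAP. No pulldown overlapped the inputs of its treatment, and the log2 changes were 0.95 (SE 0.18, adjusted p = 4.81e-04) and 0.69 (SE 0.18, adjusted p = 0.00745). Klc2, the second main light chain, was at 558, 389, 737 and 766 CPM in normal input and 354, 343, 389 and 602 CPM in normal TRAP. Paclitaxel inputs held 464, 473, 675 and 1016 CPM and the matching pulldowns 220.0, 265, 422 and 779 CPM. The groups overlapped, but Klc2 was lower in the pulldown in 8 of 8 biosamples, and fell by 0.53 (adjusted p = 0.0325) in normal and by 0.74 (adjusted p = 0.00505) in paclitaxel biosamples on the log2 scale.

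The kinesin-1 calls differed in how far they rested on single biosamples. Kif5a in normal biosamples passed in all 22 alternative settings. Its paclitaxel call was lost in 2 of 22, where the change was 0.60 without the 4 biosamples (adjusted p = 0.0748) and 0.96 without the intensity trend (adjusted p = 0.0513). Klc1 in paclitaxel was lost without biosample 5 or 6 (adjusted p = 0.0628 and 0.0678), and its change was 0.37 with quantile normalization (adjusted p = 0.138) and 0.51 without the 4 biosamples (adjusted p = 0.179); in normal it was 0.44 with quantile normalization (adjusted p = 0.0814). Klc2 was lost in normal without biosample 1 or 3 (adjusted p = 0.102 and 0.169) and in paclitaxel without biosample 5 (adjusted p = 0.0532). Its normal change was -0.085 with median ratios (adjusted p = 0.775) and -0.0081 with edgeR (adjusted p = 0.983), and its paclitaxel change -0.42 with median ratios (adjusted p = 0.108), -0.35 with edgeR (adjusted p = 0.264) and -0.53 without the 4 biosamples (adjusted p = 0.12).

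**Figure D2:**
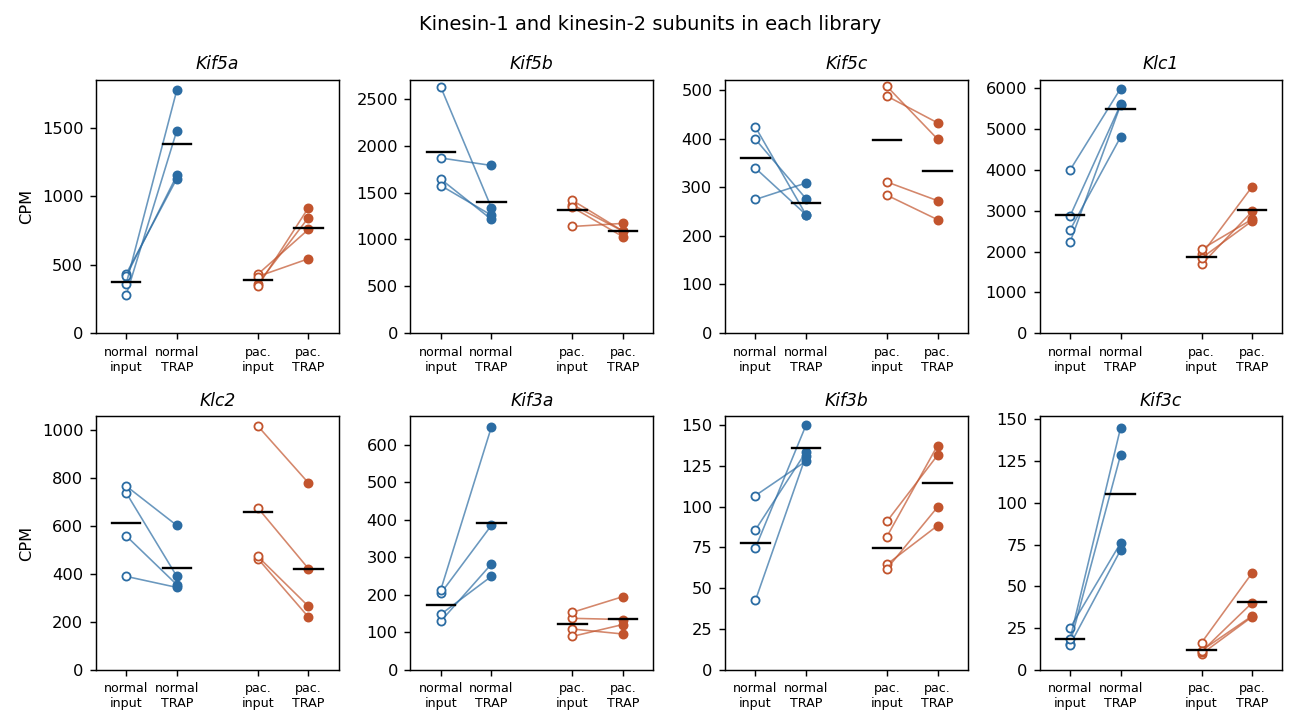
CPM of 8 kinesin-1 and kinesin-2 subunits in each of the 16 libraries (y axes start at 0 and differ between genes), with lines joining input (open) and TRAP (filled) of 1 biosample and black bars at the group means. Kif5a, Klc1 and Kif3c rise from input to TRAP in 8 of 8 biosamples, and Kif3a does so in 4 of 4 normal and 2 of 4 paclitaxel biosamples.

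Kinesin-2 is a motor of a Kif3a chain paired with Kif3b or Kif3c, which carries vesicles in axons and, with Kif3b, serves transport in cilia. All 3 tested chains rose in normal TRAP, and 1 of 3, Kif3c, rose in paclitaxel TRAP. Kif3c (ENSMUSG00000020668.9, plus strand, deposited locus GRCm38 chromosome 12, 3365131 to 3506852, which may span neighbouring genes), the chain enriched in neurons, was at 15.6, 24.9, 14.9 and 18.3 CPM in normal input and at 129, 75.9, 71.7 and 145 CPM in normal TRAP. The paclitaxel values were 9.40, 10.8, 16.2 and 11.5 CPM in input and 31.7, 40.1, 58.0 and 32.2 CPM in TRAP. The log2 change of 2.41 (SE 0.36, adjusted p = 5.12e-05) in normal was the largest rise of the 57 members, and that in paclitaxel biosamples was 1.66 (SE 0.36, adjusted p = 0.00235). Both passed in all 22 alternative settings, and in neither treatment did input and TRAP overlap.

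Kif3a (ENSMUSG00000018395.19, GRCm38 chromosome 11, 53567378 to 53601967, plus strand), the shared chain, stood at 204, 129, 148 and 214 CPM in normal input and 385, 282, 249 and 647 CPM in normal TRAP. After paclitaxel it stood at 137, 153, 109 and 88.9 CPM in input and 134, 195, 95.3 and 121 CPM in TRAP. All normal pulldowns were above all normal inputs, with a log2 change of 1.09 (SE 0.21, adjusted p = 4.77e-04), while paclitaxel inputs and pulldowns overlapped (0.14, adjusted p = 0.631). The difference between the treatments in this change did not pass (-0.95, adjusted p = 0.169). Kif3b (ENSMUSG00000027475.9, GRCm38 chromosome 2, 153291412 to 153333390, plus strand) rose in normal TRAP by 0.87 (adjusted p = 0.0103), from 77.5 ± 26.8 to 136 ± 9.80 CPM (SD, n = 4), and its paclitaxel change of 0.60 (adjusted p = 0.0671) was higher in 4 of 4 pairs but did not pass. The normal call of Kif3b was lost without biosample 1 (adjusted p = 0.0839). Kif17, a further kinesin-2 of dendrites and cilia, was under the level filter at 0 to 2.34 CPM, with 0 in 7 of the 8 pulldowns.

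Because the 3 kinesin-2 chains moved together in the normal pulldown, the 120 bases upstream of their transcript starts are shown, 5′ to 3′, from RefSeq on GRCm38.p6, with capitals at matches to 4 motifs searched on both strands, namely the GC box letters GGGCGG, the CCAAT box letters CCAAT, the TATA box letters TATAAA and the E-box letters CACGTG.
Kif3a, chr11:53567249-53567368, plus strand: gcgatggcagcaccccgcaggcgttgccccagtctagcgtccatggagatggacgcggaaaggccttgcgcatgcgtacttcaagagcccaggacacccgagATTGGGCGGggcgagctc
Kif3b, chr2:153291296-153291415, plus strand: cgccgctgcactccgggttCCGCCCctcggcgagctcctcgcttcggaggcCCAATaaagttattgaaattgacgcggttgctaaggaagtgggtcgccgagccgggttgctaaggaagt
Kif3c, chr12:3365012-3365131, plus strand: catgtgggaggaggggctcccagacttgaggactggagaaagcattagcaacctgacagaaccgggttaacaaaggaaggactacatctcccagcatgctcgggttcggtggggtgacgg
Kif3a and Kif3b each hold 1 match to GGGCGG and 1 to CCAAT, on 1 strand or the other, which overlap by GG in Kif3a, and no match to the 4 motifs lies in the window of Kif3c. In the 250 bases upstream of the start, GGGCGG was found for 27 of 42 members in the RefSeq table (64.3%) and for 35.4% of 27025 genes in it, and CCAAT for 19 members (45.2%) and 37.5% of genes. TATAAA was found for 3 members (7.14%) and 14.3% of genes, and CACGTG for 2 (4.76%) and 6.86%. The members had passed the level filter, while the 27025 genes were not filtered by level, so these shares come from unlike sets. A match is a run of letters and not a measured binding site.

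Kinesin-3 motors carry synaptic vesicle precursors, dense-core vesicles and endosomes. None of the 7 tested members rose, 3 fell in normal TRAP (Kif1c, Kif13a and Kif16b) and 2 in paclitaxel TRAP (Kif1b and Kif1c). Over all genes tested 5.09% rose and 24.7% fell in normal, and 4.92% rose and 23% fell in paclitaxel TRAP. Kif1a, the neuronal carrier of synaptic vesicle precursors, was at 233, 234, 333 and 232 CPM in normal input and 339, 237, 328 and 252 in normal TRAP, and at 268, 231, 321 and 325 and 380.3, 158, 348 and 302 CPM in paclitaxel input and TRAP. Its groups overlapped throughout, and its log2 changes of 0.16 (adjusted p = 0.538) and -0.01 (adjusted p = 0.972) did not pass.

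Kif1b, which carries mitochondria and synaptic vesicle precursors, was at 595, 633, 675 and 546 CPM in normal input and 405, 460.2, 621 and 493 in normal TRAP. After paclitaxel the inputs held 671, 702, 516 and 419 CPM and the pulldowns 492, 439.9, 287 and 336 CPM. It was lower in the pulldown in 8 of 8 biosamples and fell by 0.57 (adjusted p = 0.0176) in paclitaxel, with -0.32 (adjusted p = 0.16) in normal biosamples. Kif1c, a broadly expressed relative, was at 62.0, 53.4, 71.0 and 80.9 CPM in normal input and 25.7, 34.6, 52.4 and 36.5 in normal TRAP, and at 93.8, 90.0, 94.3 and 90.9 and 17.8, 39.8, 65.5 and 47.9 CPM in paclitaxel input and TRAP. It showed no overlap in either treatment and fell by 0.85 (adjusted p = 0.0397) in normal and fell by 1.23 (adjusted p = 0.00572) in paclitaxel biosamples.

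Kif16b, a motor of early endosomes, was at 35.1, 23.7, 27.8 and 37.5 CPM in normal input and 4.14, 2.35, 27.4 and 13.7 in normal TRAP. In paclitaxel biosamples it was at 26.4, 29.5, 35.5 and 36.0 CPM in input and 5.44, 31.6, 19.6 and 28.6 in TRAP. Pulldown 3 (27.4 CPM) was within the range of the inputs and the other normal pulldowns were below it, and Kif16b fell by 1.78 (adjusted p = 0.0135) in normal, with -0.78 (adjusted p = 0.26) in paclitaxel biosamples. Kif13a fell by 1.54 (adjusted p = 0.0333) in normal TRAP, and that call rested on pulldown 1 at 0.35 CPM, since it was lost without biosample 1 (adjusted p = 0.356); its change was also -1.19 with median ratios (adjusted p = 0.112), -0.74 with quantile normalization (adjusted p = 0.22), -1.04 with edgeR (adjusted p = 0.364) and -0.60 without the 4 biosamples (adjusted p = 0.415). Kif1b in paclitaxel was lost without biosample 5, 6 or 7 (adjusted p = 0.0557, 0.0874 and 0.11), Kif1c in normal without biosample 1, 2, 3, 4 or 8 (adjusted p = 0.141, 0.0525, 0.0559, 0.118 and 0.0531) and in paclitaxel without biosample 5 (adjusted p = 0.078), and Kif16b in normal without biosample 1 or 2 (adjusted p = 0.082 and 0.068).

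The falls called for these kinesin-3 members depended on scaling as well. In paclitaxel the Kif1b change was -0.25 with median ratios (adjusted p = 0.319), -0.20 with edgeR (adjusted p = 0.517) and -0.58 without the 4 biosamples (adjusted p = 0.0854). For Kif1c the normal change was -0.42 with median ratios (adjusted p = 0.333), -0.49 with quantile normalization (adjusted p = 0.237), -0.35 with edgeR (adjusted p = 0.49) and -0.78 without the 4 biosamples (adjusted p = 0.0918), and the paclitaxel change -0.86 with edgeR (adjusted p = 0.0869) and -0.71 without the 4 biosamples (adjusted p = 0.142). Kif16b in normal had -1.39 with median ratios (adjusted p = 0.0539), -1.03 with quantile normalization (adjusted p = 0.0993), -1.48 with edgeR (adjusted p = 0.132) and -0.70 without the 4 biosamples (adjusted p = 0.32).

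Kif1bp, which has no motor and binds the motor domains of kinesins so that they leave the microtubule, was at 76.1, 104, 68.5 and 38.2 CPM in normal input and 15.0, 47.6, 30.1 and 19.6 in normal TRAP. Paclitaxel inputs held 71.1, 71.0, 72.0 and 53.5 CPM and the matching pulldowns 43.8, 51.1, 66.9 and 41.9 CPM. It was lower in the pulldown in 8 of 8 biosamples, although the groups overlapped, and fell by 1.37 (SE 0.30, adjusted p = 0.00195) in normal, with -0.40 (adjusted p = 0.322) in paclitaxel biosamples. The normal change was -0.89 with edgeR (adjusted p = 0.0607). The test of that difference gave 0.97 (adjusted p = 0.385).

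Among 7 kinesins of other nerve or ciliary roles, none rose and Kif7 fell in both treatments. For all genes tested the shares were 5.09% higher and 24.7% lower in normal, and 4.92% and 23% in paclitaxel TRAP. Kif7, a ciliary kinesin of Hedgehog signalling, was at 2.43, 1.10, 2.83 and 5.39 CPM in normal input and at 0, 0.11, 0 and 0 CPM in normal TRAP. The paclitaxel values were 5.93, 4.20, 6.37 and 7.04 CPM in input and 0, 0.03, 0.045 and 2.27 CPM in TRAP. Pulldown 8 held 2.27 CPM, the other 7 pulldowns were at or below the level of 3 reads, and no pulldown reached an input of its treatment. Kif7 fell by 1.83 (adjusted p = 0.00786) in normal and fell by 2.31 (adjusted p = 0.00178) in paclitaxel biosamples on the log2(CPM + 1) scale, and the size of such a fall depends on the pseudocount. Kif7 entered the test through the inputs alone, with 1 pulldown at 1 CPM or more, so its falls partly follow from the filter. They were lost with other scalings, with a normal change of -0.76 with quantile normalization (adjusted p = 0.192) and -6.07 with edgeR (adjusted p = 0.0605) and a paclitaxel change of -0.78 with quantile normalization (adjusted p = 0.172), -5.68 with edgeR (adjusted p = 0.0767) and -2.06 without the 4 biosamples (adjusted p = 0.0522). Of 8 fibroblast markers 6 fell in normal and 7 in paclitaxel TRAP: they summed to 1966 to 3869 CPM in normal input, 467 to 873 in normal TRAP, 3389 to 5234 in paclitaxel input and 471 to 1159.6 in paclitaxel TRAP. Their part in the Kif7 result was not tested. Kif21a, an axonal kinesin-4, had log2 changes of -0.53 (adjusted p = 0.0608) and -0.13 (adjusted p = 0.679).

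Kinesin-13 members shorten microtubules rather than walk on them. Kif2a, which trims neurite branches, was at 138, 114, 114 and 148 CPM in normal input and 94.6, 60.0, 108 and 212 in normal TRAP. After paclitaxel the inputs held 147, 148, 129 and 107 CPM and the pulldowns 44.1, 93.5, 66.3 and 125 CPM. The groups overlapped in both treatments, and Kif2a fell in paclitaxel by 0.77 (adjusted p = 0.0396), a call lost without biosample 5, 6 or 7 (adjusted p = 0.303, 0.0901 and 0.126) and at -0.46 with median ratios (adjusted p = 0.215), -0.68 with quantile normalization (adjusted p = 0.073), -0.39 with edgeR (adjusted p = 0.352) and -0.36 without the 4 biosamples (adjusted p = 0.42), with -0.26 (adjusted p = 0.491) in normal biosamples. Kif2c, the mitotic relative, was at 0 to 0.09 CPM in paclitaxel TRAP and 1.23 to 2.60 CPM in the inputs, with a change of -1.50 (adjusted p = 0.00533). It reached 1 CPM in 6 inputs and 0 pulldowns and so entered the test through the inputs alone, which partly fixes that direction. Quantile normalization turned the sign (0.07, adjusted p = 0.912), and the call was lost at -5.23 with edgeR (adjusted p = 0.0634) and -1.65 without the 4 biosamples (adjusted p = 0.0717). Kif24, a centriolar member, had a normal log2 change of 0.66 (adjusted p = 0.059) with no overlap between groups, which did not pass.

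The 10 tested mitotic kinesins form and separate the spindle, and none rose in TRAP. Among all genes tested 5.09% rose and 24.7% fell in normal, and 4.92% rose and 23% fell in paclitaxel TRAP. Kif23 fell in normal and Kif11 and Kif20b in paclitaxel TRAP, each with at least 1 pulldown at or below the level of 3 reads. Kif20b and Kif23 entered the test through the inputs alone, with 3 pulldowns at 1 CPM or more. Kif23, a motor of cytokinesis, was at 5.57, 3.69, 4.56 and 16.9 CPM in normal input and 0, 0.26, 2.69 and 0.17 in normal TRAP, and at 7.66, 9.54, 3.98 and 5.20 and 8.84, 0.06, 0.045 and 5.29 CPM in paclitaxel input and TRAP. It fell by 2.28 (adjusted p = 0.0153) in normal biosamples, with -1.34 (adjusted p = 0.142) in paclitaxel. Kif20b, another cytokinesis kinesin, was at 9.32, 5.73, 2.90 and 11.02 CPM in normal input and 0.1, 10.96, 0 and 15.6 in normal TRAP, and at 7.56, 5.58, 6.91 and 4.44 and 0.07, 0, 0.04 and 4.16 CPM in paclitaxel input and TRAP. Its normal pulldowns scattered on both sides of the inputs, and it fell in paclitaxel by 2.18 (adjusted p = 0.0253). Kif11, the kinesin that pushes spindle poles apart, fell in paclitaxel by 1.69 (adjusted p = 0.038), from 5.39 ± 1.44 to 1.05 ± 0.785 CPM (SD, n = 4).

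Summed, the mitotic kinesins were at 36.1 to 84.2 CPM in normal input, 24.9 to 73.8 in normal TRAP, 49.6 to 54.0 in paclitaxel input and 37.4 to 89.6 in paclitaxel TRAP. Markers of dividing cells, 14 of 16 listed genes tested, summed to 179 to 228, 98.4 to 141, 292 to 469 and 171 to 238 CPM, with 2 of the 16 at 0 in all paclitaxel pulldowns. Of the 14, 4 fell in normal and 8 in paclitaxel TRAP, and 1 rose in the latter, and their part in the kinesin values was not tested. In paclitaxel TRAP 8 of the 10 mitotic kinesins had changes below 0 and Kif20a and Kif22 above 0. Kif22, a chromosome-arm kinesin, was at 21.0 to 75.4 CPM in paclitaxel TRAP and 10.1 to 16.4 in input, with no overlap, but did not pass (1.40, adjusted p = 0.0611). The Kif23 call was lost without biosample 1 or 4 (adjusted p = 0.068 and 0.0964), that of Kif20b without biosample 5, 6 or 7 (adjusted p = 0.117, 0.0998 and 0.113) and that of Kif11 without biosample 3, 5, 6, 7 or 8 (adjusted p = 0.0533, 0.113, 0.125, 0.102 and 0.0544). With other scalings or biosamples Kif23 had -1.21 with quantile normalization (adjusted p = 0.139) and -4.19 with edgeR (adjusted p = 0.164), and Kif20b -1.97 with median ratios (adjusted p = 0.0506), -0.71 with quantile normalization (adjusted p = 0.378), -5.64 with edgeR (adjusted p = 0.0974) and -1.50 without the 4 biosamples (adjusted p = 0.216). Kif11 had -1.47 with median ratios (adjusted p = 0.0879), -0.13 with quantile normalization (adjusted p = 0.882), -2.44 with edgeR (adjusted p = 0.256) and -1.48 without the 4 biosamples (adjusted p = 0.207).

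Cytoplasmic dynein carries cargo toward the cell body. Of its 5 tested chains 1 rose in normal TRAP and 1 in paclitaxel TRAP, in both cases Dync1i2. Dync1h1, the heavy chain with the motor, was at 434, 451, 905 and 665 CPM in normal input and 625, 571, 646 and 753 in normal TRAP, and at 699, 688, 576 and 559 and 803, 734, 674 and 570.0 CPM in paclitaxel input and TRAP. The groups overlapped, and the log2 changes were 0.14 (adjusted p = 0.567) and 0.14 (adjusted p = 0.59). Dync1i2 (ENSMUSG00000027012.15, GRCm38 chromosome 2, 71211705 to 71263303, plus strand), an intermediate chain (the chain that binds dynactin), was at 638, 775, 701 and 832 CPM in normal input and 1364, 1589, 1556 and 2431 in normal TRAP. After paclitaxel it was at 592, 599.9, 656 and 587 CPM in input and 1122, 1236, 1060.0 and 846 in TRAP. There was no overlap in either treatment, with log2 changes of 1.21 (SE 0.17, adjusted p = 2.24e-05) and 0.80 (SE 0.17, adjusted p = 0.00198). Without the 4 biosamples the paclitaxel change of Dync1i2 was 0.61 (adjusted p = 0.0703) and no longer passed. Dync1i1, the other intermediate chain, had -0.19 (adjusted p = 0.439) and 0.06 (adjusted p = 0.837). Dync1li1, a light intermediate chain that binds cargo adaptors, fell in normal TRAP by 0.56 (adjusted p = 0.0357), a call lost without biosample 1, 3 or 4 (adjusted p = 0.156, 0.0617 and 0.0731). Its change was -0.12 with median ratios (adjusted p = 0.698), -0.44 with quantile normalization (adjusted p = 0.107), -0.043 with edgeR (adjusted p = 0.903) and -0.49 without the 4 biosamples (adjusted p = 0.169).

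Light chains sit on the intermediate chains. Dynll2 (ENSMUSG00000020483.14, GRCm38 chromosome 11, 87979524 to 87987533, minus strand), a small hub protein of dynein and many other complexes, was at 1279, 2159, 1441 and 1086 CPM in normal input and 3401, 4090.3, 3237 and 1449 in normal TRAP. In paclitaxel biosamples it was at 1202, 1295, 839.6 and 983 CPM in input and 2529, 2476, 1647 and 1699.8 in TRAP. Each pulldown was above its own input; in normal biosamples pulldown 4 lay within the range of the inputs, and in paclitaxel biosamples the groups did not overlap. Dynll2 rose by 0.98 (SE 0.18, adjusted p = 3.83e-04) and 0.94 (SE 0.18, adjusted p = 8.18e-04) and passed in all 22 alternative settings in both treatments. Dynll1, its close paralog, was at 440.2, 578, 457 and 319 CPM in normal input and 401, 329.6, 333 and 481 in normal TRAP, and at 294, 252, 378 and 405 and 483, 446, 490.3 and 421 CPM in paclitaxel input and TRAP. Its paclitaxel pulldowns were all above the inputs, yet neither change passed (-0.20, adjusted p = 0.463 in normal, 0.49 (adjusted p = 0.0771) in paclitaxel).

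Dynlt3, a light chain of the Tctex type, was at 1326, 1072, 1083 and 1089 CPM in normal input and 526, 515, 681 and 789.8 in normal TRAP, with every pulldown below every input. Paclitaxel inputs held 940.0, 976, 986 and 849.9 CPM and the matching pulldowns 818, 765, 1232 and 844 CPM, and the groups overlapped. It fell by 0.88 (SE 0.18, adjusted p = 0.00116) in normal, with -0.06 (adjusted p = 0.828) in paclitaxel biosamples, and the difference between the treatments did not pass (0.82, adjusted p = 0.185). The normal change was -0.44 with median ratios (adjusted p = 0.0925), -0.36 with edgeR (adjusted p = 0.23) and -0.57 without the 4 biosamples (adjusted p = 0.0825). Dync2h1, the heavy chain of the dynein of cilia, was at 30.8, 19.5, 22.1 and 40.8 CPM in normal input and 0.3, 18.0, 12.2 and 20.9 in normal TRAP, and at 30.2, 30.9, 29.0 and 24.2 and 5.96, 15.4, 2.22 and 10.3 CPM in paclitaxel input and TRAP. It was lower in the pulldown in 8 of 8 biosamples and fell in paclitaxel by 1.87 (adjusted p = 0.0302), with -1.61 (adjusted p = 0.0558) in normal; the paclitaxel call was lost without biosample 5 or 7 (adjusted p = 0.0991 and 0.162), and the change was -1.58 with median ratios (adjusted p = 0.076) and -1.64 with edgeR (adjusted p = 0.192).

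Dynlrb1 (ENSMUSG00000047459.14, GRCm38 chromosome 2, 155236532 to 155250277, plus strand), the roadblock-type light chain, was the member whose TRAP change differed between the treatments. It was at 127, 187, 199 and 64.5 CPM in normal input and 138, 146, 228 and 36.5 in normal TRAP, which overlapped. The paclitaxel values were 150.1, 135, 129 and 125 CPM in input and 465, 436, 306 and 202 CPM in TRAP, with all pulldowns above all inputs. The log2 change was -0.21 (SE 0.22, adjusted p = 0.486) in normal and 1.31 (SE 0.22, adjusted p = 3.02e-04) in paclitaxel biosamples, and the rise in paclitaxel passed in all 22 alternative settings. The difference between the changes was 1.52 (SE 0.32, adjusted p = 0.042). Of the 57 members 1 rose and 0 fell in that test of the difference, where 0.162% of all genes rose and 0.0281% fell, and 6 and 2 members had an unadjusted p under 0.05, as did 6.94% and 4.4% of all genes. The call held in 4 of 22 alternative settings, with changes of 1.27 to 1.72 and adjusted p from 0.028 to 0.627, and it was lost without biosample 2, 4, 5, 6, 7 or 8 (adjusted p = 0.13, 0.0784, 0.202, 0.144, 0.183 and 0.0544).

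**Figure D3:**
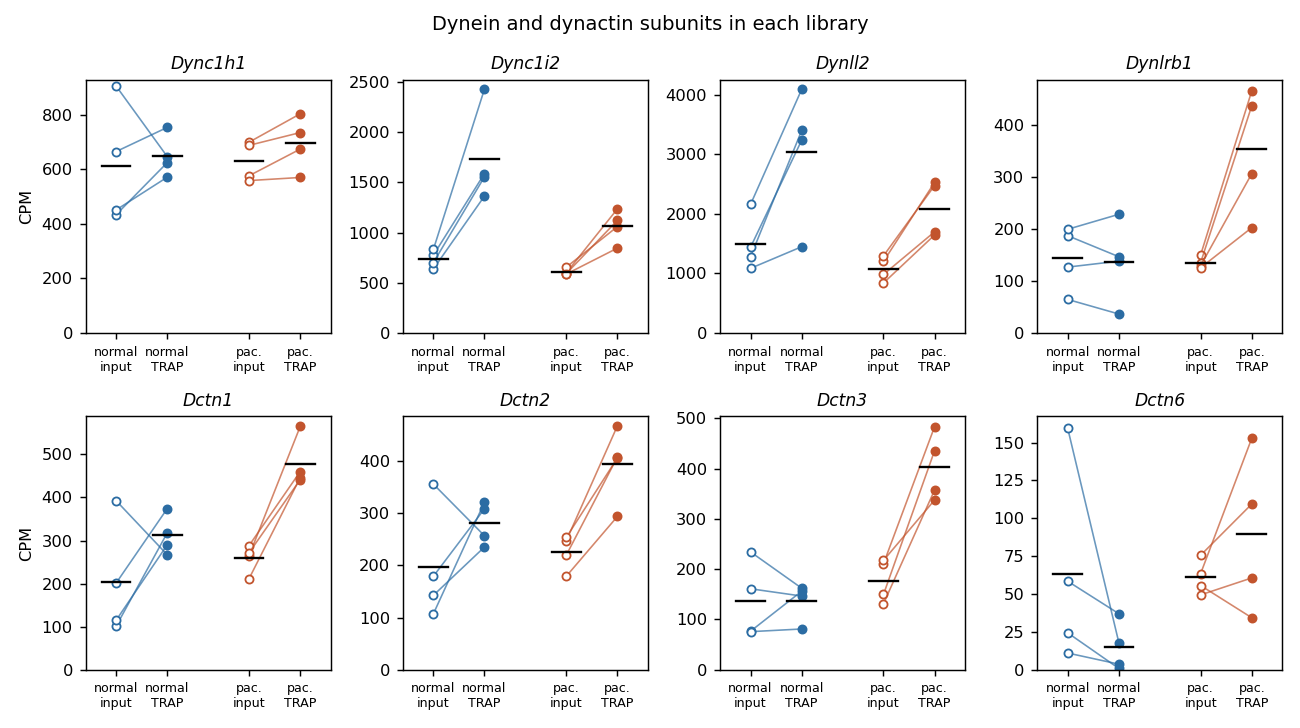
CPM of 8 dynein and dynactin subunits in each of the 16 libraries (y axes start at 0 and differ between genes), with lines joining input (open) and TRAP (filled) of 1 biosample and black bars at the group means. Dctn3 and Dynlrb1 rise in 4 of 4 paclitaxel and 2 of 4 normal biosamples, and normal input 2 holds the highest normal input value of Dctn1, Dctn2, Dctn3 and Dctn6.

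Dynactin, the activator of dynein, has an arm and shoulder (Dctn1, Dctn2, Dctn3), which hold dynein and the microtubule, and a pointed end (Dctn4, Dctn5, Dctn6), which meets cargo adaptors. Of its 6 subunits named here Dctn1 and Dctn2 rose and Dctn6 fell in normal TRAP, and Dctn1, Dctn2, Dctn3 and Dctn4 rose in paclitaxel TRAP. Dctn1, the largest subunit, was at 101, 392, 201 and 115 CPM in normal input and 318, 267, 374 and 290.2 in normal TRAP. After paclitaxel the inputs held 265, 212, 288 and 272 CPM and the pulldowns 565, 446, 460.2 and 441 CPM. Normal groups overlapped because input 2 was above all normal pulldowns, and paclitaxel groups did not overlap. The log2 changes were 0.83 (adjusted p = 0.0159) and 0.88 (adjusted p = 0.0113). Dctn4, a pointed-end subunit, rose in paclitaxel by 0.53 (adjusted p = 0.0394), from 170.3 ± 25.7 to 246 ± 30.3 CPM (SD, n = 4), with 0.20 (adjusted p = 0.432) in normal biosamples.

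Dctn2, the subunit whose excess takes the complex apart, was at 107, 356, 179 and 143 CPM in normal input and 321, 257, 309 and 235 in normal TRAP, and at 219.6, 179, 247 and 254 and 408, 294, 467 and 406 CPM in paclitaxel input and TRAP. It showed the same order, with normal input 2 the highest of its group, and log2 changes of 0.65 (adjusted p = 0.037) and 0.80 (adjusted p = 0.0138). Dctn3 (ENSMUSG00000028447.11, minus strand, deposited locus GRCm38 chromosome 4, 41699988 to 41774247, which may span neighbouring genes), the small shoulder subunit, was at 76.6, 234, 161 and 75.7 CPM in normal input and 156, 162, 147 and 81.0 in normal TRAP. In paclitaxel biosamples it was at 149.7, 131, 211 and 217 CPM in input and 436, 357, 483 and 338 in TRAP, with no overlap. Its log2 change was 0.11 (SE 0.23, adjusted p = 0.73) in normal and 1.20 (SE 0.23, adjusted p = 8.65e-04) in paclitaxel biosamples, the latter in all 22 alternative settings, and the difference did not pass (1.09, adjusted p = 0.161).

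Dctn6, a pointed-end subunit, was at 24.4, 159, 58.4 and 11.02 CPM in normal input and 0.85, 17.9, 37.0 and 3.68 in normal TRAP. Paclitaxel inputs held 75.6, 55.6, 63.5 and 49.4 CPM and the matching pulldowns 109, 34.3, 153 and 60.6 CPM. It was lower in each normal pulldown than in its own input, although the inputs ranged over more than the gap, and fell by 2.22 (SE 0.43, adjusted p = 7.05e-04). The change was -1.003 without the 4 biosamples (adjusted p = 0.0784), and no longer passed. Its paclitaxel change of 0.35 (adjusted p = 0.57) and the difference between treatments of 2.56 (adjusted p = 0.0723) did not pass. The normal calls were lost for Dctn1 without biosample 1, 3 or 4 (adjusted p = 0.14, 0.0534 and 0.0835) and for Dctn2 without biosample 1, 3 or 4 (adjusted p = 0.3, 0.112 and 0.0855); in paclitaxel they were lost for Dctn1 without biosample 5 or 6 (adjusted p = 0.0604 and 0.0592), for Dctn2 without biosample 5 or 7 (adjusted p = 0.0611 and 0.0612) and for Dctn4 without biosample 5, 6, 7 or 8 (adjusted p = 0.0703, 0.134, 0.114 and 0.117).

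Several motors can be built from alternative subunits, and the share of each among its alternatives does not change when a library is scaled by 1 factor, though it does depend on how well each 3′ end is captured. Kif5a made up 8.57, 17.3, 17.4 and 14.4% of the summed heavy-chain CPM in normal input and 48.3, 43.6, 42.9 and 45.8% in normal TRAP. In paclitaxel biosamples it made up 16.0, 15.2, 20.6 and 22.5% in input and 36.2, 37.5, 36.8 and 27.9% in TRAP. The share was higher in TRAP in 8 of 8 biosamples, and all paclitaxel pulldowns lay below all normal ones. Kif5b took the rest for the most part, with 65.7 to 81.0% in normal input, 43.7 to 47.0% in normal TRAP, 61.3 to 64.5% in paclitaxel input and 44.7 to 60.2% in paclitaxel TRAP.

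Shares within the light chains, the Kif3 partners and the dynein intermediate chains moved one way in 8 of 8 biosamples too. Klc1 made up 77.1 to 84.5% of the kinesin light chains in normal input and 90.9 to 94.2% in normal TRAP, and 66.5 to 79.8% and 77.7 to 92.6% in paclitaxel input and TRAP. Kif3c made up 14.8 to 26.8% of Kif3b and Kif3c in normal input and 34.9 to 49.5% in normal TRAP, and 9.36 to 20.0% and 19.4 to 39.6% after paclitaxel. Dync1i2 made up 62.2 to 78.6% of the intermediate chains in normal input and 82.3 to 91.0% in normal TRAP, and 52.5 to 59.1% and 60.9 to 75.8% after paclitaxel. For Dync1i2 the paclitaxel groups lay below the normal groups in input and in TRAP alike, without overlap. The share of Kif1a among Kif1a, Kif1b and Kif1c was higher in TRAP in 8 of 8 biosamples, and those of Dynll2 over Dynll1 and of Dync1li2 over Dync1li1 in 7 of 8. These shares were not tested.

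**Figure D4:**
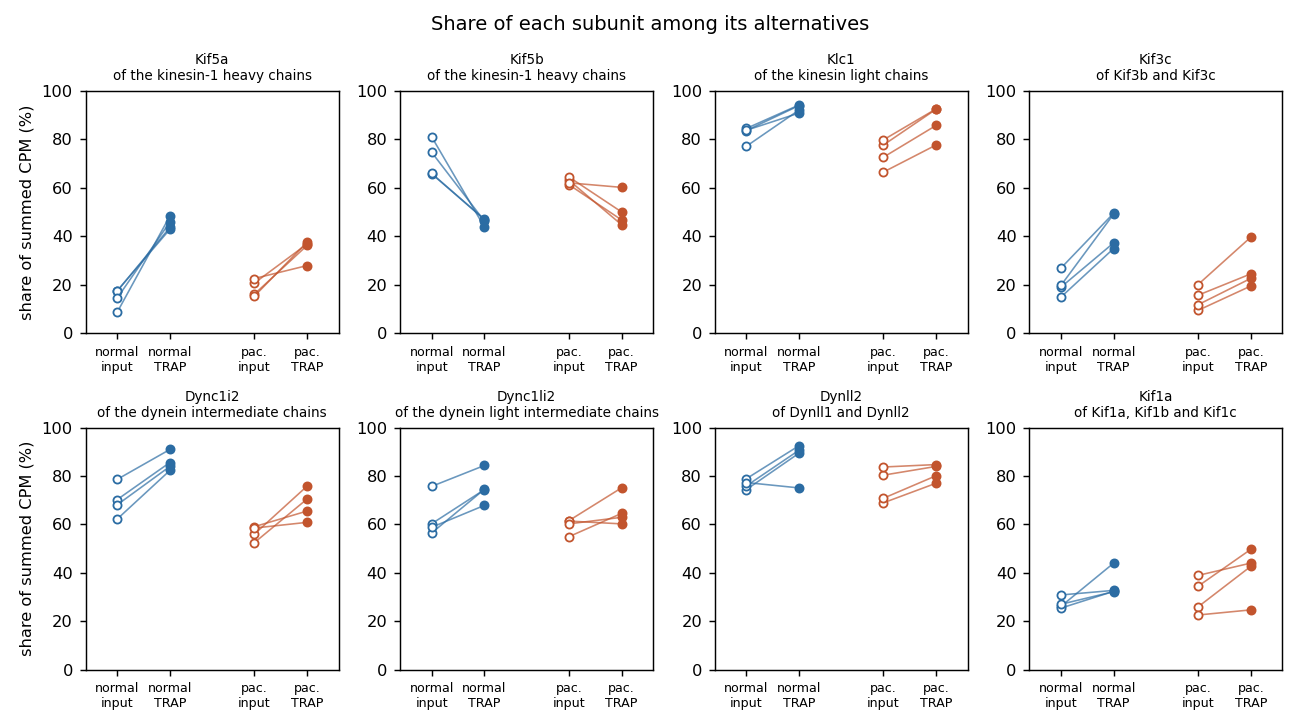
Share (%) of a subunit in the summed CPM of its alternatives in each library, with lines joining input (open) and TRAP (filled) of 1 biosample, normal in blue and paclitaxel in orange. Kif5a goes up and Kif5b down from input to TRAP in 8 of 8 biosamples, and Klc1, Kif3c and Dync1i2 go up in 8 of 8.

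The next question was how paclitaxel changed the members within each fraction, for which the 8 pulldowns and the 8 inputs were fitted apart. In TRAP 1 of 57 members, Dctn3, was higher and 1, Kif3a, was lower after paclitaxel, where 1.33% of all genes were higher and 0.492% lower. At an unadjusted p under 0.05 there were 7 members in each direction, where 11.1% of all genes were higher and 5.8% lower. The groups did not overlap for 11 members and for 10.3% of all genes. The median log2 change of the members was -0.05, against 0.17 over all genes tested. In input 1 member, Kifc3, was higher and 0 lower, where 1.46% of all genes were higher and 0.183% lower, with 7 and 5 members, and 14.5% and 4.62% of all genes, at an unadjusted p under 0.05. Scaling moved the split of all genes here too: 189 higher and 70 lower in TRAP on the CPM scale became 117 and 135 with median ratios, 307 and 216 with quantile normalization and 193 and 285 with edgeR, with medians of 0.01, -0.01 and -0.02. In input 207 higher and 26 lower became 135 and 43 with median ratios and 98 and 46 with edgeR. With edgeR on the recovered reads 2 members were higher and 4 lower in TRAP, and 0 were called in input.

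Dctn3 went from 81.0 to 162 CPM in the normal pulldowns to 338 to 483 CPM in the paclitaxel pulldowns, a log2 change of 1.59 (SE 0.27, adjusted p = 0.0139), with no overlap. In the inputs its change was 0.51 (adjusted p = 0.427). Kif3a went from 249 to 647 CPM in normal TRAP to 95.3 to 195 CPM in paclitaxel TRAP, also without overlap, and fell by 1.46 (SE 0.32, adjusted p = 0.0368). In the inputs its change was -0.51 (adjusted p = 0.251). Both calls held under median-ratio scaling, quantile normalization and edgeR. Dctn3 and Kif3a were both lost without the 4 biosamples (adjusted p = 0.417 each). The same held with no filter (adjusted p = 0.0978 and 0.148) and no intensity trend (adjusted p = 0.141 and 0.199). Kif3a was also lost with a pseudocount of 5 (adjusted p = 0.0551) and with subsample 1 of biosample 7 alone (adjusted p = 0.0722). The Dctn3 call was lost without biosample 1, 2, 5, 7 or 8 (adjusted p = 0.0501, 0.0663, 0.0526, 0.0814 and 0.118), and that of Kif3a without biosample 1, 2, 4, 5, 7 or 8 (adjusted p = 0.112, 0.102, 0.0848, 0.107, 0.152 and 0.162).

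Other members lay close to the threshold in TRAP without passing it. Dctn6 had the largest change, 3.13 (SE 0.83, adjusted p = 0.0672), with normal pulldowns at 0.85 to 37.0 CPM and paclitaxel pulldowns at 34.3 to 153 CPM. Kif3c had -1.33 (adjusted p = 0.0667) and Kif5a -0.86 (adjusted p = 0.105), both with every paclitaxel pulldown below every normal one. Dynlrb1 had 1.54 (adjusted p = 0.0997), Klc1 -0.87 (adjusted p = 0.134) and Dync1i1 0.83 (adjusted p = 0.0836). Dync1h1, Kif1a and Dync1li2 had changes of 0.10, -0.02 and 0.00 with adjusted p of 0.87 and above.

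Kifc3, a kinesin-14 that moves toward the minus end and works at cell junctions and the Golgi, was at 4.10, 10.3, 11.1 and 8.67 CPM in normal input and 19.6, 19.8, 28.3 and 23.7 CPM in paclitaxel input. All 4 paclitaxel inputs were above all normal ones, and the log2 change was 1.38 (SE 0.30, adjusted p = 0.0335). In the pulldowns it was at 0.1, 0.89, 3.41 and 2.68 CPM in normal and 16.1, 0, 7.34 and 17.4 CPM in paclitaxel TRAP, which overlapped (1.57, adjusted p = 0.476). It fell from input to TRAP in normal biosamples by 1.91 (adjusted p = 0.0424), with -1.72 (adjusted p = 0.068) in paclitaxel. Kifc3, Kif2a and Kif7 share the limit of exons that overlap a gene on the other strand. In the same inputs the 10 macrophage markers summed to 94.0 to 222 CPM in normal and 209 to 272 in paclitaxel, the 8 endothelial markers to 117 to 197 and 204 to 222 and the 8 fibroblast markers to 1966 to 3869 and 3389 to 5234; their part in the Kifc3 result was not tested. The input call was lost without biosample 1, 4, 5, 7 or 8 (adjusted p = 0.0929, 0.0537, 0.0817, 0.165 and 0.121) and the normal TRAP call without biosample 1, 2, 3, 4, 7 or 8 (adjusted p = 0.114, 0.127, 0.0821, 0.068, 0.0534 and 0.0534). In input the change was 1.27 with median ratios (adjusted p = 0.0502), 1.41 with quantile normalization (adjusted p = 0.0863), 1.28 with edgeR (adjusted p = 0.0715) and 1.32 without the 4 biosamples (adjusted p = 0.0894), and from input to TRAP in normal it was -1.66 with median ratios (adjusted p = 0.0977), -0.84 with quantile normalization (adjusted p = 0.332), -2.41 with edgeR (adjusted p = 0.206) and -1.42 without the 4 biosamples (adjusted p = 0.161).

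The members called or near the threshold after paclitaxel include the shortest mRNAs of the set. The longest protein-coding transcripts of Dynlrb1, Dctn3 and Dctn6 have 788, 973 and 1249 bases, that of Kif3a 3161 and that of Kif5a 6295. Dync2li1 and Dctn5, with 1354 and 1532 bases, had paclitaxel changes of 0.14 and -0.32 in TRAP, and neither passed. Across the 57 members the correlation of the paclitaxel change in TRAP with the log of this length was r = -0.39 (Spearman's rho -0.33). Over 14192 genes it was -0.13. In input it was -0.08, against -0.11, and in the test of the difference -0.42, against -0.08. All points of such a correlation come from the same 8 or 16 libraries and members are not independent, so it is a description only. When each library's trend with length was removed, a setting added after the data had been seen, Dctn3 and Kif3a still passed and the difference for Dynlrb1 was 1.36 (adjusted p = 0.0689).

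**Figure D5:**
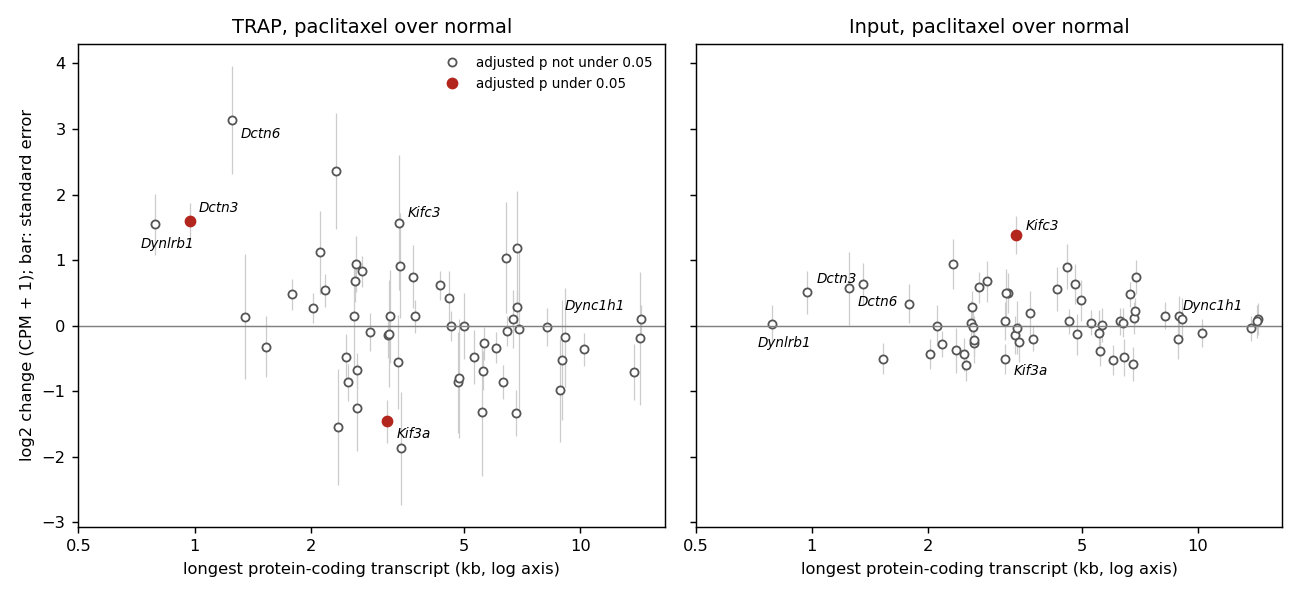
Log2 change of paclitaxel over normal for the 57 members in TRAP (left) and input (right) against the length of the longest protein-coding transcript on a log axis, with the standard error as a bar. Filled points passed an adjusted p under 0.05: Dctn3 (1.59) and Kif3a (-1.46) in TRAP and Kifc3 (1.38) in input.

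Partners of the motors outside the rule were counted from 4 lists. Of the other 6 parts of dynactin, its filament and caps, Actr1a (the filament protein) rose in both treatments, by 0.92 (adjusted p = 0.0187) and 1.24 (adjusted p = 0.00317), and Capza2 (a capping protein) fell in normal by 0.79 (adjusted p = 0.00992). The calls of list genes were not followed through the other settings. Of 14 tested activators and adaptors of dynein, 0 rose and 9 fell in normal and 3 fell in paclitaxel TRAP. Of all genes tested 24.7% fell in normal and 23% in paclitaxel TRAP. The medians of the 14 were -1.25 and -1.06, against -0.66 and -0.56 over all genes. Bicd1, a cargo adaptor, fell by 1.88 (adjusted p = 6.15e-05) in normal and fell by 1.22 (adjusted p = 0.00396) in paclitaxel biosamples, and Hook3, another, fell by 1.22 (adjusted p = 0.0072) in normal and fell by 1.55 (adjusted p = 0.00152). Pafah1b1 (the dynein regulator Lis1) had changes of 0.02 (adjusted p = 0.946) and 0.16 (adjusted p = 0.487).

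Of 25 kinesin adaptors and regulators 1 rose and 6 fell in normal and 1 rose and 2 fell in paclitaxel TRAP. Of all genes tested 5.09% rose and 24.7% fell in normal, and 4.92% rose and 23% fell in paclitaxel TRAP. Fez1, a kinesin-1 adaptor, rose by 0.74 (adjusted p = 0.0128) and 0.76 (adjusted p = 0.0121). Rhot1 (Miro, the mitochondrial anchor of kinesin-1) fell by 1.75 (adjusted p = 2.66e-04) in normal, with -0.76 (adjusted p = 0.0693) in paclitaxel, and Arl8a, which recruits kinesin to lysosomes, by 1.47 (adjusted p = 2.7e-05), with -0.30 (adjusted p = 0.298). Kifap3, the accessory subunit of kinesin-2, had changes of 0.06 (adjusted p = 0.889) and 0.28 (adjusted p = 0.483), neither of which passed. None of the 3 dynein 2 chains under older names passed in any comparison. In the paclitaxel against normal comparisons no gene of the 4 lists passed in TRAP or in input.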

How the data were processed

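The deposited file gave 1 value per gene and library, which its header calls TPM, but the deposited values are CPM: columns share 1 total, and a constant step per library divides 98.0% to 99.0% of the values above 0, within 0.0051 CPM. FastQC 0.11.5, TopHat2 2.1.1, Bowtie2 2.2.9, Cufflinks 2.2.1 and build GRCm38.p4 are named, without order, in the submitters' processing notes, and GENCODE vM10 in the file headers. Whether counting used strand or molecular identifiers is not given in the sources used here; exons of 8 members overlap a protein-coding gene on the other strand, among them Klc1, Kif2a, Kifc3 and Kif7, and Dynlt1c and Kifc1 have near-identical copies, so these values are uncertain. The authors' 2 merged columns were not used.

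Members are the genes of the symbol rule that reached 1 CPM in 4 or more of 16 libraries. Tests used limma 3.58.1 in R 4.3.3 on log2(CPM + 1), with an intensity trend, over 14214 genes; TRAP against input came from 1 fit with biosample as a block, and paclitaxel against normal from the 8 pulldowns and the 8 inputs apart. All p-values are two-sided and, unless called unadjusted, adjusted over all genes tested. Those of TRAP against input measure the spread of input-to-pulldown differences among biosamples, in 1 estimate for both treatments. Those of paclitaxel against normal measure the spread of levels between biosamples. A biosample may pool animals. Input and pulldown come from 1 homogenate, per the labels' protocols; deviations of same-numbered libraries correlated at 0.0534 to 0.376, and 7 of 8 correlated best with their own number. Members described in full were up to 6 per comparison and direction in order of p, if the higher group averaged 5 CPM or more, plus 16 well-known subunits. Members, role groups, marker lists and partner lists were chosen with earlier results of these data known. Lengths, strands and overlaps are from GENCODE vM21, and 99.8% of tested genes had a length. Positions are the loci of the deposited file. Such a locus can span neighbouring genes, as for Dynlt1a and Dynlt1b, which share a locus. The loci printed for Kif3c and Dctn3 may likewise be wider than the gene. The fits were tested on simulated data, in which each gene had the same mean in all libraries apart from planted changes. Such data hold no shift between input and pulldown over all genes, so that test says nothing about scaling.

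Other settings tried were a pseudocount of 0.1 or 5, the filter removed or raised to 5 CPM, median-ratio scaling, quantile normalization, either subsample of biosample 7, no intensity trend, robust estimation, no replicate block, each biosample left out, and edgeR 4.0.16 (quasi-likelihood, TMM) on reads recovered from the CPM steps. Chosen after seeing the data were the omission of 4 biosamples whose pulldowns held the fewest genes and removing each library's trend with transcript length (a spline with 4 degrees of freedom).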

Additional observations from a re-analysis of the deposited data

Results flagged for a closer look

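Among the 112 groups of 4 libraries of the 28 members described in full, 10 had a library whose gap to its nearest neighbour took up more of the group's range than Dixon's 95% limit for 4 values; chance gives about 1 in 20 groups. Dynlt3 had a high library in normal input, biosample 1 at 1326 CPM, and in paclitaxel TRAP, biosample 7 at 1232 CPM. Dctn1 was high in paclitaxel pulldown 5 (565 CPM) and Kif1a in normal input 3 (333 CPM), and Kif1bp was low in paclitaxel input 8 (53.5 CPM). The other 5 are low-level genes: Kif23 in normal input 4 (16.9 CPM) and normal pulldown 3 (2.69 CPM), Kif20b in paclitaxel pulldown 8 (4.16 CPM), and Kif7 in paclitaxel pulldown 8 (2.27 CPM) and normal pulldown 2 (0.11 CPM, about the 3-read floor). Paclitaxel pulldown 8 also reached 1 CPM in the most genes of all pulldowns, 13228; the part of this in the low-level values was not tested. The change of Dynlrb1 from input to TRAP differed between paclitaxel and normal biosamples by 1.52 on the log2 scale in the test of the difference itself, rising in 4 of 4 paclitaxel and 2 of 4 normal biosamples.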

How the results depend on the processing

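Of 43 member calls over the 5 comparisons, tried in up to 22 other settings each, 710 gene results stayed on their side of the threshold in the same direction, 231 no longer passed and 1 changed sign, Kif2c in paclitaxel TRAP against input under quantile normalization (0.068, adjusted p = 0.912). Calls that passed in all settings were Dync1i2, Dynll2, Kif3a, Kif3c and Kif5a in normal and Dctn3, Dynll2, Dynlrb1 and Kif3c in paclitaxel TRAP against input. The number of members higher or lower in TRAP, 9 and 11 in normal and 10 and 9 in paclitaxel biosamples, became 14 and 4, and 14 and 3, with median ratios. It became 13 and 1, and 13 and 0, with edgeR, 9 and 6, and 12 and 4, with quantile normalization, and 7 and 7, and 8 and 5, with no filter. Without the replicate block, which pairs input and pulldown of a biosample, 8 rose and 6 fell in normal, 9 rose and 5 fell in paclitaxel, and 0 passed in the test of the difference. With no intensity trend the counts were 6 and 7, and 5 and 6. With subsample 1 of biosample 7 alone 6 fell in normal, without the 4 biosamples of the fewest pulldown genes 9 rose and 5 fell in normal and 6 rose and 1 fell in paclitaxel, and with the length trend removed 5 fell in paclitaxel.

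The 1 member higher in the test of the difference became 0 with a pseudocount of 0.1, no filter, median ratios, quantile normalization, either subsample alone, no intensity trend, robust estimation, edgeR, the length trend removed and without the 4 biosamples. In TRAP, paclitaxel against normal, the 1 member higher and 1 lower became 3 and 2 with a filter of 5 CPM, 3 and 4 with robust estimation, 3 and 2 with quantile normalization, 2 and 4 with edgeR, 2 and 1 with a pseudocount of 0.1, 1 and 0 with a pseudocount of 5 and with subsample 1, 1 and 2 with subsample 2 and with median ratios, and 0 and 0 with no filter, no intensity trend and without the 4 biosamples. In input the 1 member higher became 0 with no filter, median ratios, quantile normalization, edgeR and without the 4 biosamples. Leaving out 1 biosample at a time gave 6 to 9 higher and 4 to 11 lower in normal, 6 to 12 higher and 2 to 11 lower in paclitaxel, 0 to 2 in the test of the difference, 0 to 2 higher and 0 to 2 lower in TRAP after paclitaxel, and 0 to 4 higher in input. The causes of these moves were not tested. Each group had 4 biosamples, and the pulldowns tested reached 1 CPM in as few as 9715 genes. Differences near the threshold and of members under about 5 CPM were not settled by these libraries.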
